A study of Homo sapiens with 6 samples.

Results

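A probe set of a gene expression array is a group of short DNA probes read as 1 value, and the platform's annotation can tie it to more than 1 gene. On the array used here 1388 of 32321 probe sets listed at least 2 gene symbols, and these 1388 were the members described below. They were found by counting the symbols in the annotation, with no use of the measured values, and each is called by its gene group, written with a slash between the symbols. Another 19158 probe sets named 1 gene and 11775 named none.

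The arrays were Affymetrix Human Gene 1.0 ST arrays of total RNA from H226, a human lung squamous carcinoma cell line. All cells carried a doxycycline-inducible short hairpin RNA against p63, and 3 groups of 2 arrays were compared. The control was shp63 OFF in normal growth. The second group was shp63 OFF with 10 µM Nutlin-3, a small molecule that blocks the binding of MDM2 to p53, for 12 h, and the third was shp63 ON after 1 µg/mL doxycycline for 48 h. Only the shp63 ON cells received doxycycline, and no doxycycline-treated cells without the p63 hairpin were analysed here, so the drug and the hairpin cannot be told apart. The treatments also differed in length. The gene that the hairpin targets was not analysed here, so the labels were not checked against it. The labels do not say that the 2 arrays of a group came from separate cultures, so every p-value measures only the spread between these samples, which may be technical.

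Several kinds of gene share a probe set. Paralogs are copies of 1 ancestral gene, and recent copies can be so alike that a short probe cannot separate them. Small nucleolar RNAs (snoRNAs), which guide the chemical modification of ribosomal RNA, and many microRNAs are cut from the introns or exons of longer host transcripts, so a probe there can belong to the small RNA and to its host. A readthrough gene is a transcript that runs from 1 gene into the next and carries both names. A value of such a probe set is therefore the sum over all transcripts that its probes bind, and which named gene contributed cannot be read from it.

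The 1388 members formed 978 different gene groups. Symbols numbered 2 in 771 members, at least 3 in 617 and at least 5 in 289, with a maximum of 18. All genes of the group lay on the same chromosome in 1048 members, and 511 members named a pseudogene, a gene copy that does not give the usual product. By their symbols 727 members were paralogs, 207 named a readthrough gene with 1 of its parts, 97 named a small RNA, 83 paired a gene with an antisense or unnamed locus, and 274 named other combinations. Of the 2201 genes named, 1748 were on no probe set of their own.

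How alike the promoters within a group are was computed only for stretches that do not overlap on the chromosome. The probes bind transcripts, and how alike the transcripts are was not tested. The promoters of HLA-B and HLA-C are shown here, genes named together by 2 probe sets that rose with shp63 ON. HLA-B and HLA-C are classical class I genes whose products present peptides to T cells. RefSeq (GRCh38.p14) holds the stretch from 250 bases before to 50 after the start of 1271 of the 2201 genes. The HLA-B stretch lies at chr6:31357130-31357429 and the HLA-C stretch at chr6:31272043-31272342, both on the minus strand, and the capitals mark the bases that differ in an alignment of their full lengths.
HLA-B: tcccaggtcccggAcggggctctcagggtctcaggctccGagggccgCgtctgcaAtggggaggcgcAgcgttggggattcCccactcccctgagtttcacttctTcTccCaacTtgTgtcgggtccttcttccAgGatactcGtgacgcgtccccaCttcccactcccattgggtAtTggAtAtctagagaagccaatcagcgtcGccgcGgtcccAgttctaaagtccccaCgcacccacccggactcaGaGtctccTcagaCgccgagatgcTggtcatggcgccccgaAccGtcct
HLA-C: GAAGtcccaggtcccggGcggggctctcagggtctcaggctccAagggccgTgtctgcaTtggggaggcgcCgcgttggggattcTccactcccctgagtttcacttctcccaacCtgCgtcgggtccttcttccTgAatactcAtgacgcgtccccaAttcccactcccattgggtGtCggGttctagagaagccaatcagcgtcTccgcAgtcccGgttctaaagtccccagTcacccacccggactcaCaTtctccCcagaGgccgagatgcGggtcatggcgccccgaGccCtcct
The alignment needed 35 edits, an identity of 88.3%. Across paralog members with at least 2 such stretches (383 members), the most alike pair had a median identity of 95.7%, and 231 of the 383 had a pair at 90% or above. In the readthrough class the median over the pairs left was 46.7% (112 members, of which 1 reached 90%). A readthrough gene that starts where its part starts was not paired with that part, since their stretches overlap. The readthrough value therefore cannot be set against that of the paralogs. The identity of unrelated stretches was not computed, so a low value cannot be told from no likeness.

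A second stretch is shown for the histone group with the largest fall under Nutlin-3. It is that of H3C14, a gene for histone H3 made when DNA is copied, at chr1:149841159-149841458 on the minus strand, with the letters CCAAT and TATAAA in capitals.
H3C14: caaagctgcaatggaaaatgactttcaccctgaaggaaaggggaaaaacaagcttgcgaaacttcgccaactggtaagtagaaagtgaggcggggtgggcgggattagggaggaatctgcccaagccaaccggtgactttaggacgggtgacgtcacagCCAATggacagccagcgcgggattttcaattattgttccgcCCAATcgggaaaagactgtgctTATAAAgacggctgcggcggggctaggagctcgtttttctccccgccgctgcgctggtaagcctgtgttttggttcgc
CCAAT was found, on either strand, in 23 of the 27 stretches that belong to histone genes of the members (85.2%) against 34.6% of all 35116 stretches in the table. TATAAA was found in 70.4% against 11.5%, and both in 63.0% against 4.6%. These are matches of letters only. The stretch of H3C15 was 97.3% identical to that of H3C14, whereas H3C13, named by the same probe sets, was 49.3% identical to H3C15.

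Among the members that name a microRNA, 3 loci carried the values described further on, and their mature strands are shown with the seed, bases 2 to 8, in capitals. miR-205-5p lies at chr1:209432166-209432187, miR-23b-3p at chr9:95085265-95085287, miR-27b-3p at chr9:95085505-95085525, let-7a-5p at chr22:46112752-46112773 and let-7b-5p at chr22:46113691-46113712, all on the plus strand of GRCh38.p14.
hsa-miR-205-5p: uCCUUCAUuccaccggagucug
hsa-miR-23b-3p: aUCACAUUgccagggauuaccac
hsa-miR-27b-3p: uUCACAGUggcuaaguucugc
hsa-let-7a-5p: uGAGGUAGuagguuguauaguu
hsa-let-7b-5p: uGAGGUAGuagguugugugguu
let-7a-5p and let-7b-5p share the seed GAGGUAG, and the other 3 each have a seed of their own. An array of this kind reads the longer transcripts at these loci, and whether the mature microRNAs were measured was not tested.

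The 6 arrays were alike in overall level, with medians of the deposited log2 intensity between 6.57 and 6.70. Arrays of the same group correlated at 0.9953 to 0.9965 over all probe sets and arrays of different groups at 0.9804 to 0.9911. Squamous and epithelial markers were high, 11 of 12 above the median of the table, and leukocyte markers were not (0 of 4). Mesothelial markers were above it in 2 of 5, fibroblast markers in 1 of 6 and endothelial markers in 1 of 4. The members had a median level of 7.24, close to the 7.28 of probe sets naming 1 gene and above the 5.42 of those naming none.

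Nutlin-3 gave few calls among the members, and a probe set not called is not thereby shown to be unchanged. The RNA came from bulk cultures, so fewer cells with a transcript and less of it per cell cannot be told apart. In limma's fit over all probe sets, called at an adjusted p under 0.05 (Benjamini-Hochberg), 48 rose and 35 fell, or 5.98% of the 1388. In that fit 302 of the members, and 7580 of all 32321 probe sets, had an unadjusted p under 0.05. Among all probe sets 6.97% were called, 3.87% higher and 3.10% lower, and among those naming 1 gene 9.50%. With shp63 ON, 113 rose and 186 fell, or 21.5%, against 20.0% of all probe sets (9.50% higher and 10.5% lower) and 24.8% of those naming 1 gene. The members' share was thus near that of the whole array in both comparisons. Their median log2 difference was -0.01 in each. With 2 arrays against 2, the smallest two-sided p that an exact permutation test can reach is 0.333, and the calls rest on the spread that limma shares across probe sets.

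The counts depended on single arrays. For Nutlin-3 minus control the 83 calls became 22 or 19 without control replicate 1 or 2, 36 without either Nutlin-3 array, and 48 without either shp63 ON array. For shp63 ON minus control the 299 calls became 107 or 85 without control replicate 1 or 2, and 100 or 143 without shp63 ON replicate 1 or 2. Centring each array on its median moved the split of rises and falls to 70 and 28 for Nutlin-3 and to 84 and 225 for shp63 ON. Under quantile normalization the splits were 48 and 36 for Nutlin-3 and 132 and 151 for shp63 ON.

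Compared directly, shp63 ON and Nutlin-3 differed in 500 members, 229 higher and 271 lower with shp63 ON, or 36.0%, against 34.7% of all probe sets (17.9% higher and 16.8% lower). This became 292 or 328 without shp63 ON replicate 1 or 2. Quantile normalization gave 230 higher and 233 lower. Centring the arrays gave 147 higher and 419 lower, and moved the median of all probe sets in this comparison to -0.12.

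The classes differed most with shp63 ON. In the small RNA class 36 of 97 fell and 4 rose (41.2% called, against 20.0% of all probe sets), with a median log2 difference of -0.15. The 23 members that name small RNA genes only had 5 falls, 0 rises and a median of -0.07, and the falls became 3 without control replicate 1 and 1 without control replicate 2 or either shp63 ON array. Paralogs were divided, with 66 up and 75 down of 727, and readthrough members had 16 up and 26 down of 207. The falls in the small RNA class numbered 17 to 21 when 1 control or 1 shp63 ON array was left out (20 and 17 without control replicate 1 and 2, and 18 and 21 without shp63 ON replicate 1 and 2). They numbered 34 to 38 under the other scalings, so the class had more falls than rises throughout. Readthrough members turned to 26 up and 18 down under quantile normalization. Of the 83 members with an antisense or unnamed partner 22 fell and 9 rose (37.3% called). Their falls and rises became 10 and 2 without control replicate 1, 11 and 1 without control replicate 2, 10 and 3 without shp63 ON replicate 1, and 13 and 4 without replicate 2.

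For Nutlin-3 the antisense or unnamed partner class had 8 rises and 3 falls (13.3% called), against 6.97% of all probe sets and 6.46% of paralogs. Those calls became 1 rise and 1 fall without control replicate 1, 2 and 1 without control replicate 2, 5 and 1 without Nutlin-3 replicate 1, 3 and 1 without Nutlin-3 replicate 2, and 2 and 2 without either shp63 ON array.

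**Figure D1:**
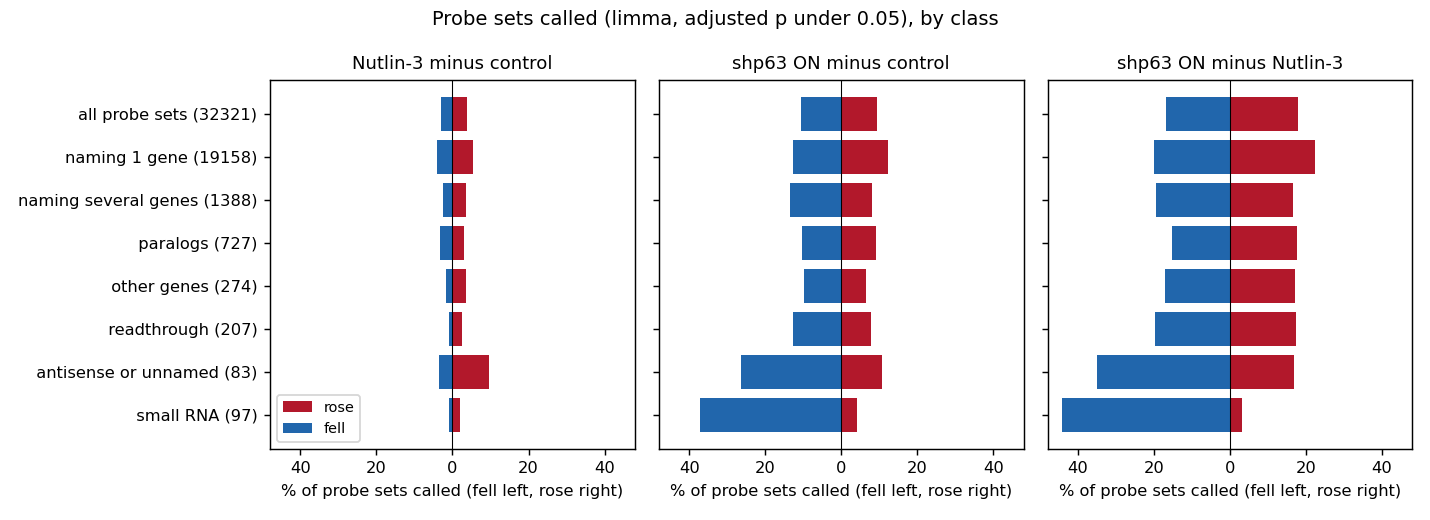
Share of probe sets called by limma at an adjusted p under 0.05 (horizontal axis, %, falls drawn to the left and rises to the right), for all probe sets, those naming 1 gene, those naming several and their 5 classes, with the number of probe sets in brackets. With shp63 ON the small RNA bar lies almost wholly on the falling side (36 fell and 4 rose).

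The direction of the calls with shp63 ON went with the level of the probe set. Of the 331 members at a mean log2 intensity of 9 or more, 81 fell and 20 rose, whereas of the 243 members from 6 to 7, 21 fell and 27 rose. Probe sets naming 1 gene showed the same order, with 853 down and 411 up of 4168 at 9 or more and 249 down and 672 up of 3317 from 6 to 7. Under log2 5 only 3 of 167 members were called. The part of level in the results below was not tested.

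The snoRNA members and the host transcripts that carry them were the largest group to move together with shp63 ON. Of 63 members naming a snoRNA or a small Cajal body RNA, 34 fell (54.0%, against 10.5% of all probe sets) and 0 rose. The median log2 difference was -0.42. Under Nutlin-3 only SNORD42B / CEP164 was called, with a rise (1.59% called, against 6.97% of all probe sets). Without control replicate 1 or 2 the falls numbered 18 and 16, without shp63 ON replicate 1 or 2 they numbered 17 and 20, and under the other scalings 32 to 36. The median level of these 63 was 7.87.

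SNHG1 is a host gene whose introns hold several snoRNAs, while its spliced RNA codes for no protein. SNHG1 / SNORD27 read 7.59 and 7.50 in the control arrays, 7.59 and 7.41 with Nutlin-3 and 5.81 and 5.80 with shp63 ON, a log2 difference of -1.74 ± 0.08 (SE, limma, n = 2 arrays a group, adjusted p = 5.4e-04) for shp63 ON. The shp63 ON arrays were the low ones, and the Nutlin-3 arrays overlapped the controls. The other SNHG1 groups fell with SNORD22 (-1.12), SNORD26 (-0.96), SNORD31 (-0.76) and SNORD29 (-0.71). SNHG1 / SNORD25 had the largest fall, -1.91 ± 0.42, but its Nutlin-3 arrays lay far apart at 6.66 and 5.37, and the call (adjusted p = 0.03 in limma) was lost without any control or shp63 ON array (0.0882 to 0.128). The SNORD31 call was lost without control replicate 1 (0.0513).

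GAS5, another noncoding host gene, first found in growth-arrested cells, behaved likewise. GAS5 / SNORD47 read 9.72 and 9.79 in control, 9.91 and 9.86 with Nutlin-3 and 8.30 and 8.54 with shp63 ON, a difference of -1.33 ± 0.09 (adjusted p = 0.00146). GAS5 with SNORD76 fell by 0.86 and with SNORD80 by 0.73. SNORA9 / SNHG15 fell by 1.44 (9.44 and 9.26 in control against 7.96 and 7.86, adjusted p = 8.9e-04). All 4 calls held without any 1 array.

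The list of SNHG and GAS5 members was put together after their values were seen, and its count is a description. Of the 22 members naming such a host, 14 fell with shp63 ON (63.6%, against 10.5% of all probe sets), at a median of -0.65. Under Nutlin-3 0 of the 22 were called, against 6.97% of all probe sets, and 3 had an unadjusted p under 0.05 in limma. At that share few of the 22 would be called. The falls numbered 9 and 10 without control replicate 1 and 2, and 9 and 10 without shp63 ON replicate 1 and 2. The host genes did not all move. SNORA60 / SNHG11 stood at 7.85 and 7.92 in control and 7.98 and 7.97 with shp63 ON, and 3 of the 4 SNHG12 groups were not called.

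**Figure D2:**
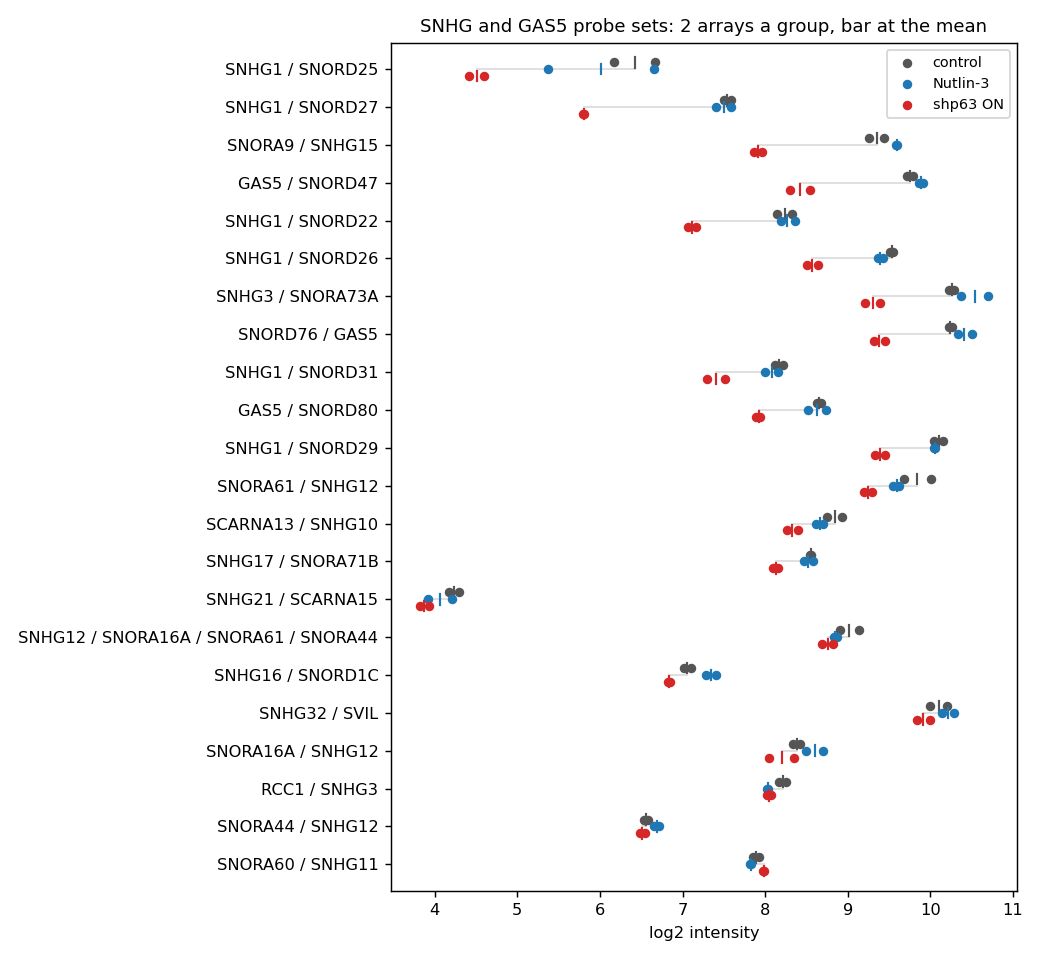
Log2 intensity (horizontal axis) of the 22 members naming an SNHG gene or GAS5, 1 line each, ordered by the shp63 ON difference, with 2 arrays a group as points and the group mean as a bar. From SNHG1 / SNORD25 at the top, the shp63 ON points of the first lines lie well to the left of control, and SNORA60 / SNHG11 shows no such gap.

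Further snoRNA members, picked as examples after their values were seen, share a probe set with the gene of a nucleolar protein. DKC1 is the pseudouridine synthase that works with H/ACA snoRNAs, and SNORA56 / DKC1 read 6.58 and 6.58 in control, 6.41 and 6.34 with Nutlin-3 and 5.38 and 5.46 with shp63 ON (-1.16 ± 0.07, adjusted p = 8.5e-04). MIR664B / SNORA36A / DKC1 was not called (-0.11 ± 0.08, adjusted p = 0.391). NOP56 is a core protein of C/D snoRNPs, and SNORD56 / NOP56 fell by 0.77. TAF1D belongs to the factor that recruits RNA polymerase I, and SNORA40 / TAF1D fell by 0.98 in 1 of its 2 probe sets, whereas the other (-0.40 ± 0.19) and SNORD6 / TAF1D (0.02) were not called. SNORA1 / TAF1D, SNORA8 / TAF1D and SNORD5 / TAF1D were also called as falls, each lost without at least 1 array. Their differences ran from -0.71 to -0.41 over the fits without 1 array.

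SNORD42B / CEP164 was the member with opposite calls in this list. It read 6.81 and 6.80 in control, 7.33 and 7.22 with Nutlin-3 and 5.69 and 5.72 with shp63 ON, so that the 3 groups did not overlap. The rise was 0.47 ± 0.07 (adjusted p = 0.016) and the fall -1.10 ± 0.07 (adjusted p = 9.7e-04). The rise was lost without control replicate 1 or 2 or Nutlin-3 replicate 1 (0.0682 to 0.105).

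The snoRNA clusters of the imprinted SNRPN region on chromosome 15 differed in level. The SNORD116 members stood at log2 intensities of 5.47 to 11.58, and 5 of 6 with SNORD116 copies fell with shp63 ON, by 0.35 to 0.70. Every SNORD115 member stood between 3.35 and 3.72 in all 6 arrays, near the bottom of the table (2.94), and 0 were called. Each of the 5 calls was lost without at least 1 array: 3 of them without any control or shp63 ON array, 1 without either control array or shp63 ON replicate 2, and 1 without shp63 ON replicate 1 alone (0.0548 to 0.156 over all).

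Ribosomal protein members, which name a ribosomal protein gene with its processed pseudogenes, its intronic snoRNA or a neighbour, had 21 falls and 1 rise with shp63 ON among 46 members, where 10.5% of all probe sets fell. Of the 21 falls 5 also name a snoRNA and are among the snoRNA members above. The median log2 difference was -0.27 and the median level 9.81. Of all 331 members at a mean log2 intensity of 9 or more, 81 fell and 20 rose with shp63 ON. The part of level was not tested. Under Nutlin-3 the ribosomal protein members had 2 rises and 0 falls (4.35% called, against 6.97% of all probe sets). RPL21P28 / RPL21P19 / RPL21P44 / RPL21 read 9.63 and 9.56 in control, 9.51 and 9.53 with Nutlin-3 and 8.82 and 8.85 with shp63 ON, a difference of -0.76 ± 0.06 (adjusted p = 0.00219). A second probe set of the same group fell by 0.46, and the third was not called (-0.03 ± 0.09). The second call was lost without control replicate 2 or shp63 ON replicate 1 (0.054 and 0.0638).

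These falls were small and rested on single arrays. Their number was 4 without either control array, 4 without shp63 ON replicate 1 and 9 without replicate 2, and 14 under quantile and 15 under cyclic loess normalization. The median stayed between -0.34 and -0.20. RPL23AP7 / RPL23A (-0.65) held without any 1 array. RPL23AP5 / RPL23AP82 / RPL23AP7, made of pseudogenes only, was the member that rose, by 1.39 (adjusted p = 0.0182), and that call was lost without any control or shp63 ON array (0.065 to 0.0971). Under Nutlin-3, RPL23AP53 / RPL23AP87 / RPL23AP82 / RPL23AP7 rose by 0.63 (9.28 and 9.28 in control, 9.88 and 9.94 with Nutlin-3), a call lost without control replicate 1 or 2 (0.0508 and 0.0529).

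NME1 is a nucleoside diphosphate kinase, and NME1-NME2 is the readthrough transcript that joins it to its neighbour. NME1-NME2 / NME1 read 10.93 and 10.82 in control, 11.36 and 11.27 with Nutlin-3 and 9.87 and 9.79 with shp63 ON, and it was singled out after these values were seen. The shp63 ON fall of 1.05 ± 0.08 (adjusted p = 0.00158) held without any 1 array. The Nutlin-3 rise of 0.44 (adjusted p = 0.03) was lost without any of the 6 arrays (0.0627 to 0.145).

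Histone members fell in both comparisons. These are replication-dependent histone genes, which lie in clusters on chromosomes 1 and 6, are copied into RNA mainly while DNA is made, and give RNA without a poly(A) tail. Of 17 members 8 fell and 1 rose under Nutlin-3, and 8 fell and 0 rose with shp63 ON. Of all probe sets 3.10% fell and 3.87% rose under Nutlin-3, and 10.5% fell and 9.50% rose with shp63 ON. Both comparisons use the same control arrays, so they are not independent. The Nutlin-3 falls numbered 4 without control replicate 1 or 2, 5 without Nutlin-3 replicate 1 or 2, and 6 without either shp63 ON array. The shp63 ON falls numbered 7 to 9.

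H3C13 / H3C15 / H3C14 showed the largest changes. One probe set read 10.02 and 10.11 in control, 8.53 and 8.21 with Nutlin-3 and 7.75 and 7.54 with shp63 ON. It was 3.23-fold lower with Nutlin-3 (-1.69 ± 0.13, adjusted p = 0.0022) and 5.35-fold lower with shp63 ON (-2.42 ± 0.13, adjusted p = 7.1e-04). The 3 groups did not overlap, and the direct difference between them was called (-0.73, adjusted p = 0.00971), though not without shp63 ON replicate 2 (0.0512). A second probe set of the group fell by 0.97 and 1.16, while the third stood at 10.65 and 10.44 in control, 10.44 and 10.73 with Nutlin-3 and 10.48 and 10.30 with shp63 ON and was not called.

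H3C4 / H2AC7, an H3 and an H2A gene of the chromosome 6 cluster, read 9.38 and 9.65 in control, 8.36 and 8.39 with Nutlin-3 and 7.77 and 7.82 with shp63 ON. The differences were -1.14 ± 0.10 (adjusted p = 0.00355) and -1.72 ± 0.10 (adjusted p = 8.9e-04). H2BC12 / H2BC12L / H2BC17 / H2BC5 fell by 0.73 and 0.91. These calls, and those of both H3C13 / H3C15 / H3C14 probe sets, held without any 1 array.

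H3C10 / H2AC13 was lower in both treatments (-0.62 and -1.25), but the Nutlin-3 call was lost without 5 of the 6 arrays, all but Nutlin-3 replicate 1 (0.0527 to 0.108). H4C11 / H4C12 fell with shp63 ON by 0.68, and its Nutlin-3 value of -0.33 was not called (adjusted p = 0.074). H4C15 / H4C14 went the other way under Nutlin-3, at 5.80 and 6.05 in control and 6.74 and 6.47 with Nutlin-3 (0.68 ± 0.12, adjusted p = 0.0333). That rise was lost without any array except Nutlin-3 replicate 2 (0.075 to 0.16). The stretches around the starts of H4C14 and H4C15 were 100.0% identical.

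**Figure D3:**
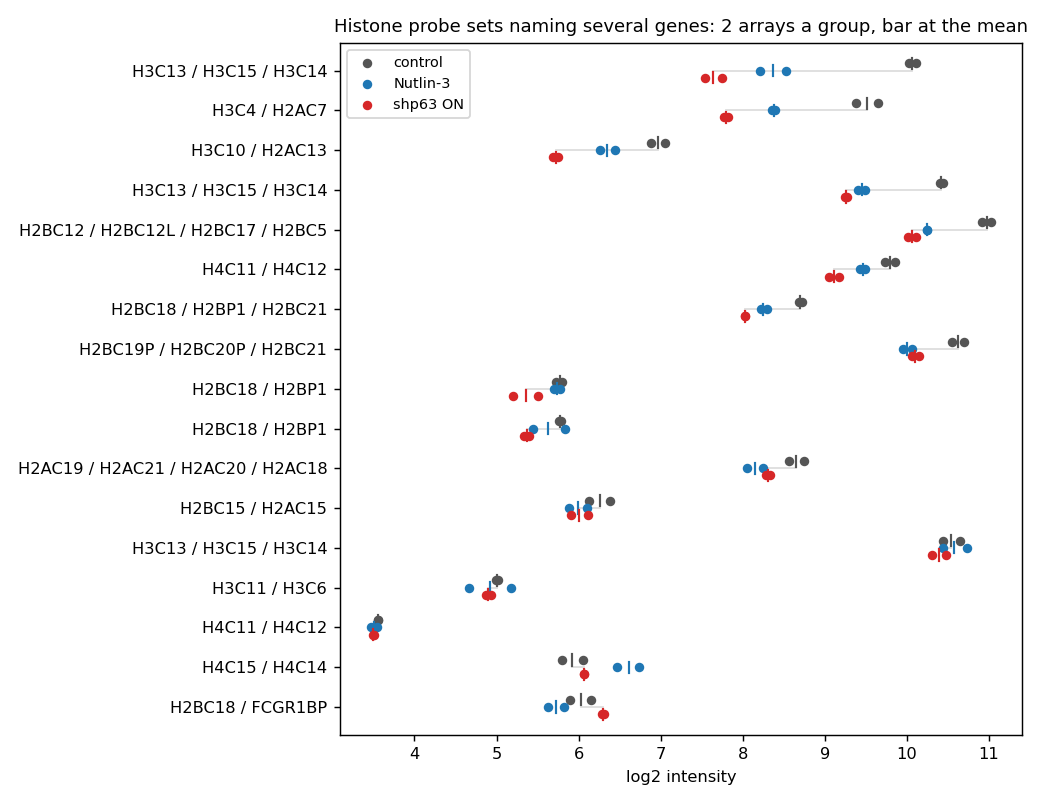
Log2 intensity (horizontal axis) of the 17 members naming a replication-dependent histone gene, 1 line each, ordered by the shp63 ON difference, with 2 arrays a group as points and the group mean as a bar. In the top lines control lies to the right of Nutlin-3 and shp63 ON, by up to 2.42 log2 units in H3C13 / H3C15 / H3C14.

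FAM72 genes are copies spread along chromosome 1 by segmental duplication, and all 3 probe sets of FAM72A / FAM72D / FAM72B fell in both comparisons. The brightest read 8.61 and 8.99 in control, 7.95 and 7.87 with Nutlin-3 and 6.10 and 6.41 with shp63 ON, 5.84-fold lower with shp63 ON (-2.55 ± 0.16, adjusted p = 0.00101), the largest change of any member there. The others differed by -1.14 and -1.37 with shp63 ON, and by -0.64 and -0.56 with Nutlin-3. The shp63 ON calls held without any 1 array. The Nutlin-3 calls did not: that of the brightest (-0.89, adjusted p = 0.0319) was lost without any of the 6 arrays (0.0502 to 0.122), and the other 2 without either control array and Nutlin-3 replicate 2, 1 of them also without replicate 1 (0.06 to 0.128). The starts of FAM72A and FAM72D were 95.0% identical.

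The segmental duplication families, FAM72 included, had 223 members, of which 6 rose and 7 fell under Nutlin-3 (5.83% called, against 6.97% of all probe sets). With shp63 ON 7 rose and 31 fell, or 17.0% called against 20.0% of all probe sets (13.9% fell, against 10.5%). Under Nutlin-3 these became 2 and 1 without control replicate 1, 2 and 2 without control replicate 2, 4 and 4 without Nutlin-3 replicate 1, and 5 and 3 without replicate 2. The 31 falls became 12 and 10 without control replicate 1 and 2, and 12 and 20 without shp63 ON replicate 1 and 2. ANKRD36 / ANKRD36B fell with shp63 ON by 1.02 (adjusted p = 0.00158). A probe set naming 7 genes and pseudogenes of the ANKRD20A family rose with Nutlin-3 by 0.85, and that call held without any 1 array. With shp63 ON it fell by 0.59 (limma, adjusted p = 0.00858), a call lost without control replicate 2 or shp63 ON replicate 1.

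A galectin-9 member gave the largest rise called under Nutlin-3. LGALS9 encodes a lectin that binds galactose-bearing sugars and acts on immune cells, and LGALS9B and LGALS9C are its copies on chromosome 17. In 1 probe set LGALS9C / LGALS9B / LGALS9 read 6.92 and 7.19 in control, 8.77 and 8.47 with Nutlin-3 and 7.84 and 7.84 with shp63 ON, a Nutlin-3 rise of 1.57 ± 0.13 (2.96-fold, adjusted p = 0.00278). In the other it read 8.79 and 8.80, 10.06 and 10.05, and 9.19 and 9.19, a rise of 1.26 ± 0.06 (adjusted p = 6.1e-04). In both, the groups did not overlap and shp63 ON lay between control and Nutlin-3.

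The shp63 ON rises of this group were smaller, 0.79 (adjusted p = 0.0146) and 0.40 (adjusted p = 0.0104). The first was lost without control replicate 1 or either shp63 ON array and the second without any control or shp63 ON array (0.0524 to 0.0758 over both). A probe set naming LGALS9 alone rose by 0.92 with Nutlin-3 (adjusted p = 0.0444). The starts of LGALS9B and LGALS9C were 95.7% identical, and those of LGALS9 and LGALS9B 90.0%.

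Other Nutlin-3 rises came from pairs of a gene and its copy. HSD17B7 is a dehydrogenase of cholesterol and sex steroid synthesis, and HSD17B7P2 / HSD17B7 read 6.53 and 6.65 in control, 7.97 and 7.88 with Nutlin-3 and 6.32 and 6.52 with shp63 ON (1.34, adjusted p = 0.00172). FRMPD2B / FRMPD2, which names a FERM and PDZ domain scaffold protein, rose by 1.33 (5.69 and 5.60 against 6.89 and 7.06, adjusted p = 0.00111). ZNF658B / ZNF658, naming a zinc finger protein, rose by 1.14 (6.27 and 6.24 against 7.34 and 7.45, adjusted p = 0.00129). In all 3 the Nutlin-3 arrays were the high ones, and these rises held without any 1 array. With shp63 ON FRMPD2B / FRMPD2 fell by 0.49 and ZNF658B / ZNF658 by 0.28 (limma, adjusted p = 0.015 and 0.0479). The first fall was lost without any control or shp63 ON array, and the second without any of the 6 arrays.

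TNFRSF10C is a decoy receptor for the death ligand TRAIL and was the member from the list of p53 target genes. LOC254896 / TNFRSF10C read 7.58 and 7.68 in control, 8.69 and 8.67 with Nutlin-3 and 7.50 and 7.68 with shp63 ON, a rise of 1.05 (adjusted p = 0.00256). It held without any 1 array, though not in 1 other alternative. No member named MDM2, CDKN1A or a gene of the p53 family.

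SLC43A3 / PRG2, a solute carrier gene beside the gene of an eosinophil granule protein, had the largest Nutlin-3 fall called after H3C13 / H3C15 / H3C14. It read 9.15 and 9.29 in control, 7.84 and 7.97 with Nutlin-3 and 8.86 and 8.88 with shp63 ON (-1.32, adjusted p = 0.00106), and PRG2 on its own probe set was not called (0.09). FKBP5 is a co-chaperone of the glucocorticoid receptor, and FKBP5 / LOC285847 fell in both comparisons (-0.80 and -0.89). DDX11 is a DNA helicase, and LOC642846 / DDX12P / DDX11 fell with Nutlin-3 by 0.68. These calls held without any 1 array.

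HLA class I members rose with shp63 ON. The 4 probe sets naming only class I genes, a list drawn up after their values were seen, rose in the fit over all arrays and in each alternative tried. HLA-F / HLA-B read 6.99 and 6.92 in control, 6.96 and 6.86 with Nutlin-3 and 8.87 and 8.62 with shp63 ON, a rise of 1.79 ± 0.10 (adjusted p = 8.3e-04). A second probe set of that group rose by 0.99. HLA-C / HLA-B rose by 0.85 ± 0.06 (12.03 and 12.02 in control, 12.26 and 12.17 with Nutlin-3, 12.89 and 12.86 with shp63 ON, adjusted p = 0.00172) and by 0.84 in its second probe set. In all 4 the shp63 ON arrays lay above the rest. None was called under Nutlin-3, where 1 had an unadjusted p under 0.05 and 6.97% of all probe sets were called.

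Of all 51 HLA and immune receptor members, 8 rose (15.7%, against 9.50% of all probe sets) and 1 fell with shp63 ON. Under Nutlin-3 0 rose and 1 fell (1.96% called, against 6.97% of all probe sets). The rises numbered 6 and 5 without control replicate 1 and 2, and 5 and 6 without shp63 ON replicate 1 and 2. Class II genes present peptides from outside the cell, and HLA-DQB2 / HLA-DQB1 rose by 0.77 and 0.56 in 2 of its probe sets. The first was lost without control replicate 2 (0.055) and the second without control replicate 1 or shp63 ON replicate 1 (0.0727 and 0.0748). The median level of the 51 was 5.75, below the 6.64 of all probe sets.

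CYP21A2, the adrenal steroid 21-hydroxylase, lies near the HLA genes on chromosome 6 beside its pseudogene. CYP21A1P / CYP21A2 read 7.35 and 7.14 in control, 7.53 and 7.46 with Nutlin-3 and 8.33 and 8.70 with shp63 ON (1.27, adjusted p = 0.00485), and the call held without any 1 array. ADAM21P1 / ADAM21, naming a metalloprotease-like protein of testis, had the largest shp63 ON rise at 1.98 ± 0.27 (adjusted p = 0.00903). Its control arrays lay apart at 5.49 and 4.62, against 7.17 and 6.90 with shp63 ON, and the call was lost without shp63 ON replicate 1 (0.0588).

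MIR205HG is the host of miR-205, a microRNA of stratified epithelium whose sequence is given above. MIR205HG / MIR205 read 9.26 and 9.20 in control, 9.77 and 9.82 with Nutlin-3 and 8.15 and 8.06 with shp63 ON, so the 3 groups did not overlap. The shp63 ON fall was 2.18-fold (-1.12 ± 0.07, adjusted p = 9.3e-04) and held without any 1 array. The Nutlin-3 rise of 0.57 ± 0.07 (adjusted p = 0.00913) was lost without control replicate 1 or 2 or Nutlin-3 replicate 2 (0.0545 to 0.0747). The direct difference was -1.69 log2 units.

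The cluster of miR-23b, miR-27b and miR-24-1 lies within AOPEP, an aminopeptidase gene on chromosome 9. MIR23B / AOPEP read 8.75 and 8.69 in control, 8.39 and 8.50 with Nutlin-3 and 9.44 and 9.48 with shp63 ON, and MIR27B / AOPEP read 7.58 and 7.58, 7.14 and 7.06, and 8.30 and 8.24. With shp63 ON they rose by 0.74 (adjusted p = 0.0033) and 0.69 (adjusted p = 0.00324), and both calls held without any 1 array. Under Nutlin-3 MIR27B / AOPEP fell by 0.48 (adjusted p = 0.0137), a call lost without control replicate 1 or 2 or Nutlin-3 replicate 2 (0.0675 to 0.097), and MIR23B / AOPEP was not called (-0.28, adjusted p = 0.0834). MIR24-1 / AOPEP stood at 4.40 to 4.60 in all arrays and was not called. The probe set naming AOPEP alone rose by 0.39 with shp63 ON.

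The let-7 members lie in MIRLET7BHG, a host gene on chromosome 22. With shp63 ON, MIRLET7B / MIRLET7BHG rose by 0.57 (7.14 and 7.28 against 7.66 and 7.89, adjusted p = 0.0191) and MIRLET7A3 / MIRLET7BHG by 0.45 (5.87 and 5.98 against 6.48 and 6.26, adjusted p = 0.0293). The first was lost without control replicate 1 or 2 or shp63 ON replicate 2, and the second without control replicate 1 or 2 or shp63 ON replicate 1 (0.0705 to 0.128 over both). Over the 32 microRNA members 4 rose (12.5%, against 9.50% of all probe sets) and 1 fell with shp63 ON. Their median level was 4.85.

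**Figure D4:**
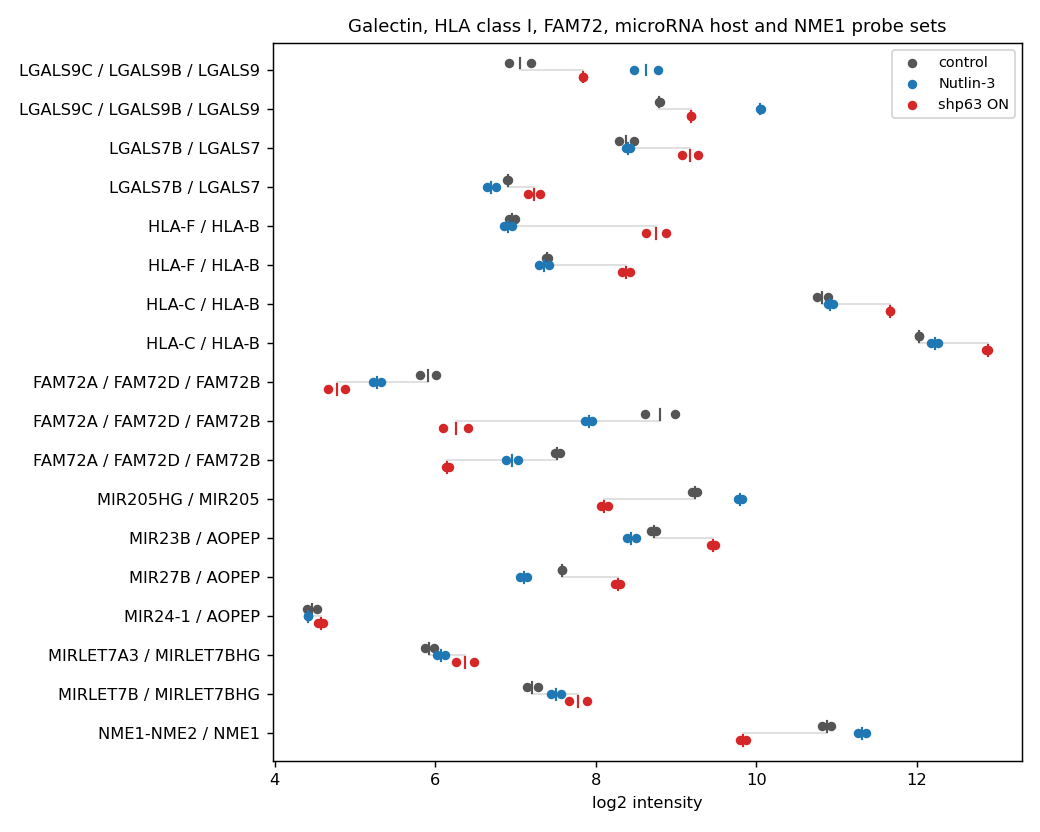
Log2 intensity (horizontal axis) of members naming galectin, HLA class I, FAM72, microRNA host and NME1 genes, 1 line per probe set, with 2 arrays a group as points and the group mean as a bar. Nutlin-3 lies to the right of control in both LGALS9 lines, shp63 ON to the right in the 4 HLA lines and to the left in FAM72, MIR205HG and NME1.

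LGALS7 encodes galectin-7, a lectin of stratified epithelium, and LGALS7B / LGALS7, singled out after its values were seen, read 8.29 and 8.48 in control, 8.42 and 8.38 with Nutlin-3 and 9.27 and 9.07 with shp63 ON (0.78, adjusted p = 0.00699). Its second probe set rose by 0.34 (adjusted p = 0.0382), a call lost without any control or shp63 ON array (0.0715 to 0.143). Keratin-associated proteins form the matrix of hair fibres, and a KRTAP2 group (KRTAP2-3 / KRTAP2-2 / KRTAP2-4 / KRTAP2-1) rose by 0.77 (adjusted p = 0.00371) and 0.69 in its 2 probe sets. The second of these was lost without control replicate 2 or shp63 ON replicate 2 (0.0566 and 0.0574).

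Of the 17 keratin-associated members 3 rose with shp63 ON (17.6%, against 9.50% of all probe sets). With Nutlin-3 2 fell (11.8%, against 3.10%). The rises became 1 without control replicate 2 and 2 without either shp63 ON array, and the falls became 1 without Nutlin-3 replicate 2 and 0 without any other 1 array and after centring or either normalization of the arrays. In the direct comparison with Nutlin-3, 9 of the 17 keratin-associated members were higher with shp63 ON and 0 lower, where 17.9% of all probe sets were higher. Several of the 9 were probe sets of the same gene group, so they were not independent. The 17 are the members naming keratin-associated genes only, set apart with earlier results known. In the full family of 21 keratin and keratin-associated members 10 were higher (47.6%) and 0 lower. The 9 became 6 without either Nutlin-3 array, 5 without either shp63 ON array, 7 under quantile normalization and 6 under cyclic loess normalization or centring. Cancer-testis antigen members, named for genes active in germ cells and in some tumours, gave 8 rises of 53, and 3, 0, 2 and 3 without control replicate 1, control replicate 2, shp63 ON replicate 1 and shp63 ON replicate 2. With shp63 ON 15.1% of the 53 rose, against 9.50% of all probe sets. The rises among the 53 numbered 3 under quantile and 2 under cyclic loess normalization. CTAG1A / CTAG2 / CTAG1B rose by 0.52 (adjusted p = 0.00796), a call lost without control replicate 2 (0.0593).

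The olfactory receptor and defensin families gave few calls. Among 48 olfactory receptor members 1 rose with shp63 ON (2.08% called, against 20.0% of all probe sets). Under Nutlin-3 0 of them were called in limma, against 6.97% of all probe sets, and 3 had an unadjusted p under 0.05. Among 10 defensin members 0 were called in either comparison, and 1 had an unadjusted p under 0.05 in each. So few members cannot be told apart from those shares under Nutlin-3. The median levels of the 2 families were 5.92 and 4.82, below the 6.64 of all probe sets. The part of level was not tested. Zinc finger members gave 2 rises of 41 under Nutlin-3 (4.88% called, against 6.97% of all probe sets). With shp63 ON they gave 4 rises and 6 falls (24.4% called, against 20.0%).

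Probe sets of the same gene group often had different calls. Of the 250 groups with more than 1 probe set, 20 had all their probe sets called the same way with shp63 ON, 77 had some called in 1 direction, 3 had calls in both directions and 150 had none. Under Nutlin-3 the numbers were 6, 19, 0 and 225. The group AGAP5 / AGAP9 / AGAP12P / AGAP6 / AGAP11 / AGAP4, of GTPase-activating protein copies on chromosome 10, was among the 3 and was picked for that. Of its 7 probe sets 1 rose by 0.92 and 1 fell by 0.53, and both calls were lost without any control or shp63 ON array (0.0514 to 0.121).

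For 580 members at least 1 of the genes also had a probe set of its own, giving 953 pairs. Of 205 pairs whose member was called with shp63 ON, the single-gene probe set was called the same way in 59, the opposite way in 7 and not at all in 139. Under Nutlin-3 the numbers were 15, 0 and 46 of 61. The 2 probe sets of a pair differed from control in the same direction, called or not, in 164 of the 205 pairs and 52 of the 61. Of all probe sets naming 1 gene 24.8% were called with shp63 ON and 9.50% under Nutlin-3. CENPA is the histone H3 variant of centromeres, and SLC35F6 is its neighbour on chromosome 2, a membrane transporter gene. SLC35F6 / CENPA fell with shp63 ON by 0.69 (8.51 and 8.65 against 7.91 and 7.86, adjusted p = 0.0241), whereas SLC35F6 alone rose by 0.63 (adjusted p = 0.0033). The fall was lost without any control or shp63 ON array (0.0783 to 0.119).

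The H2B genes on chromosome 1 showed another pair of opposite calls. H2BC18 / H2BP1 / H2BC21 fell with shp63 ON by 0.67 and H2BC19P / H2BC20P / H2BC21 by 0.52, while the probe set naming H2BC21 alone rose by 0.81 (adjusted p = 0.0155). The second of these falls was lost without control replicate 2 or either shp63 ON array (0.0545 to 0.0732). FRMPD2 alone rose with Nutlin-3 by 2.10 (adjusted p = 9.8e-04), against 1.33 for FRMPD2B / FRMPD2, and HSD17B7P2 alone by 1.01, against 1.34 for HSD17B7P2 / HSD17B7. Differences within a pair were not tested.

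**Figure D5:**
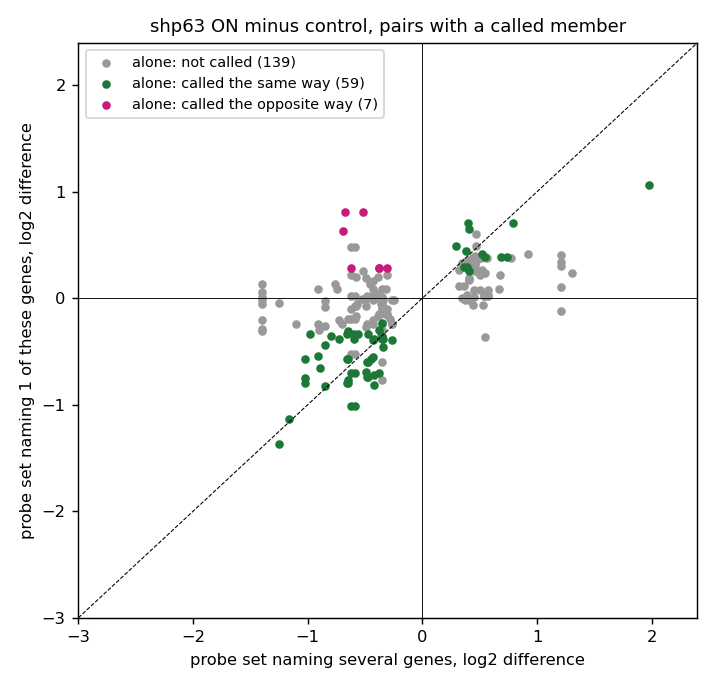
Log2 difference between shp63 ON and control in 205 pairs of a called member (horizontal axis) and a probe set naming 1 of its genes alone (vertical axis), with the line of equal values dashed. Pairs called the same way (59) lie at the lower left and upper right, and the 7 called the opposite way at the upper left, where the member fell and the single-gene probe set rose.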

How the data were processed

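Total RNA of 6 H226 samples was measured on single-colour arrays. The values are log2 intensities per probe set, deposited by the authors as 1 table over 32321 probe sets, and run from 2.94 to 14.88. Partek is named in the submitters' processing notes without a version, and the design text names a one-way analysis of variance. The normalization behind the deposited log2 values is not given in the sources used here, and the number of arrays limits the precision.

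Members were found in the platform's gene table, whose symbols were checked by Entrez ID against RefSeq. Limma 3.58.1 (R 4.3.3) fitted lmFit and eBayes with 1 mean per group to all probe sets and 6 arrays, with Benjamini-Hochberg adjustment over all probe sets, a call being an adjusted p under 0.05. SE is the standard error of the fit. The script was tested on simulated data. Classes and families came from fixed symbol patterns. The named gene groups were, per comparison with control, the 10 largest rises and 10 largest falls among called members whose groups did not overlap, up to 4 per family, the 5 per direction with the largest shp63 ON to Nutlin-3 difference, and the 5 per direction with the largest smaller change in both; others described were chosen after their values were seen or belong to the same groups and families. Members, lists and families were chosen with earlier results of these data known. Values of Y-linked members are not printed singly, though these members are counted in the totals and in their families, and protein sequences were not used here. Alternatives changed the scaling, the moderation, the filter on dim probe sets, the membership rule and the arrays used.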

Additional observations from a re-analysis of the deposited data

How the results depend on the processing

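Under the alternatives none of the 149 calls of named groups changed direction. Of these, 62 held in every alternative other than leaving out 1 array, and 57 in every alternative tried. Leaving out 1 array gave 19 to 48 calls for Nutlin-3 minus control (83 with all arrays), 85 to 288 for shp63 ON minus control (299) and 292 to 433 for shp63 ON minus Nutlin-3 (500). Analysis of variance without moderation gave 17, 123 and 269 calls, and 86 of the 149 named calls were weaker in it. Some calls said above to hold without any 1 array were lost in 1 other alternative. Among them were the Nutlin-3 calls of LOC254896 / TNFRSF10C, H3C13 / H3C15 / H3C14, H3C4 / H2AC7 and FKBP5 / LOC285847. For Nutlin-3 minus control, a fit of only the 2 groups gave 48 calls, only probe sets naming a gene 158, and only probe sets at a mean log2 intensity of 7 or more 133. The other alternatives stayed within 1.5 times of the count with all arrays. The replicate numbers did not pair the arrays: the deviations of same-numbered arrays correlated at -0.0308, 0.0165 and 0.1044, and with the replicate block the counts were 65, 268 and 473. Causes of these shifts were not tested, beyond the fewer arrays or probe sets that a setting keeps. Signal over background is not given by the deposited values, so dim members such as the SNORD115 groups cannot be told from background.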
